A study of Mus musculus with 12 samples.

Results

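The immediate early genes described here are Fos, Fosb, Jun, Junb, Egr1, Arc, Npas4, Nr4a1, Ier2 and Dusp1. They were taken by gene symbol from the deposited count and FPKM tables, and all 10 were found among 24346 genes. All 10 passed the filter on low counts that left 17380 genes for testing. RNA came from 12 libraries in 4 groups of 3, made from midbrain of C57BL/6 mice that had received an injection into the substantia nigra on both sides. The groups were saline at 7 weeks, G51D α-synuclein preformed fibrils at 7 weeks, saline at 12 weeks and the same fibrils at 12 weeks, with 20 µg of fibrils given at 5 µg/µL. G51D is a variant of α-synuclein linked to familial Parkinson's disease, and preformed fibrils are used to seed its aggregation. In every group cells carrying the orange fluorescent protein hKO1, which marked dopaminergic neurons in the study, were sorted by FACS from dissected tissue. Neither ages nor the promoter behind hKO1 are given in the labels, which also leave unsaid whether each replicate is another animal. P-values thus cover the spread between these samples, which may be technical. Time after injection, age and handling date cannot be told apart.

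Immediate early genes are transcribed within minutes of a stimulus without new protein synthesis. In neurons, calcium entry and growth factors act through MAP kinases, CREB and serum response factor, which are already present and bind elements in the promoters of these genes. The products are mainly transcription factors that switch on later genes, together with feedback regulators such as the phosphatase Dusp1 and the synaptic effector Arc. Most of these genes also respond to stress and to cell handling in glia and blood vessels, while Npas4 is known for its selectivity for calcium signals in neurons.

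RefSeq promoter windows of build GRCm38.p6, running from 250 bases before to 50 bases after a gene's start, were found for 7 of the 10 genes and not for Arc, Ier2 or Egr1. Stretches of 250 bases before the start are shown for Fos and Dusp1, whose group means were lower at 12 weeks in both treatments, and for Npas4 and Jun, whose were not. Capitals mark matches, on either strand, to the searched letters, given 5′ to 3′ on the gene's strand.
Fos, chr12:85473640-85473889, plus strand: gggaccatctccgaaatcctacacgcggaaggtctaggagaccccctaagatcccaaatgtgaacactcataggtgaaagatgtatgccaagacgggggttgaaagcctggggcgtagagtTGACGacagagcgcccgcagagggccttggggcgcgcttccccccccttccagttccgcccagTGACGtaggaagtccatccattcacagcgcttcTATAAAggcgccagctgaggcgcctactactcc
Dusp1, chr17:26508473-26508722, minus strand: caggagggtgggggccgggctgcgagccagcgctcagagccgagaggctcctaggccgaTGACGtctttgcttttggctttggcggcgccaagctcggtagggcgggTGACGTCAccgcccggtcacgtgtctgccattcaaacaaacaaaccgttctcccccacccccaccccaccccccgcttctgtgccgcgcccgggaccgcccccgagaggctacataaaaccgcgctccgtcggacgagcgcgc
Npas4, chr19:4989972-4990221, minus strand: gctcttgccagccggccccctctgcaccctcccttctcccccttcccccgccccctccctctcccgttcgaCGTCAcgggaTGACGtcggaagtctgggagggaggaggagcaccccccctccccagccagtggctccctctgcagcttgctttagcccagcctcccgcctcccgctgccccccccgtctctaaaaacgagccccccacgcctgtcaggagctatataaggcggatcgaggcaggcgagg
Jun, chr4:95052223-95052472, minus strand: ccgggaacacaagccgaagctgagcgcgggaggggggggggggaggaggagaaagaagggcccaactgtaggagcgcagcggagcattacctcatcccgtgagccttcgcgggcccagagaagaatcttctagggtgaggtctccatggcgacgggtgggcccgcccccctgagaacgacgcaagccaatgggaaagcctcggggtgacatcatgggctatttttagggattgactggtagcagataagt
The core of the cAMP response element, TGACG, the letters that CREB family factors read, was present in 6 of the 7 windows, all but that of Jun. It was present in 20.8% of 32851 promoter windows of the same 300 bases. In Fos it lay 129 to 125 and 66 to 62 bases before the start, and in Npas4 179 to 175 and 169 to 165 bases before it. The full palindrome TGACGTCA, which contains the core on both strands, was found in 1.79% of windows and, among these genes, in that of Dusp1, 143 to 136 bases before the start. The letters TATAAA of the TATA box were in the windows of Fos and Junb and in 13.6% of all windows. In Fos they lay 33 to 28 bases before the start, and in Junb at the start and after it. GCGNGGGCG, read by Egr1 and its relatives, was in the windows of Fosb and Nr4a1 and in 5.55% of all. No window of the 7 held the AP-1 letters TGANTCA, present in 7.81% of windows, or the CArG box of serum response factor, present in 1.63%. This absence covers only the exact letters searched and only these 300 bases, not sites farther from the start or spelled otherwise. A match describes letters only and shows neither binding nor use.

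RNA of other cell types was abundant in the sorted samples. Assigned fragments per library ran from 2506730 to 5533324, and 1 library, synuclein 12 weeks replicate 2, had fragments in 17409 genes where the others had them in 19960 to 21135. All 8 dopaminergic markers were detected, and Th (tyrosine hydroxylase), which makes the dopamine precursor, had a mean of 374 CPM, a count scaled to library size. The oligodendrocyte marker Mbp, a myelin protein, was at a mean of 6325 CPM and the endothelial marker Ly6c1 at 3859 CPM. In such samples fewer cells of a type and less RNA per cell cannot be told apart.

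Levels between genes were compared as FPKM, which divides by transcript length. Dusp1, which dephosphorylates MAP kinases, was highest with 85.7 ± 42.2 FPKM (mean ± SD, n = 12), and Ier2, an inducible nuclear protein, followed with 78.9 ± 28.4 FPKM. These first 2 did not differ beyond their spread, since Dusp1 was above Ier2 in 5 of 12 libraries. Jun, a component of AP-1, came next with 46.5 ± 12.7 FPKM and lay below Ier2 and above Junb in each of the 12 libraries. Its relative Junb was at 17.6 ± 5.54 FPKM. Arc, which binds the endocytic machinery that removes AMPA receptors from synapses, was at 10.9 ± 6.11 FPKM, and Fos, the AP-1 partner of Jun, at 9.17 ± 6.85 FPKM. Neighbours in this middle stretch overlapped: Junb was above Arc in 9 of 12 libraries and Arc above Fos in 7. The orphan nuclear receptor Nr4a1 was at 4.95 ± 2.50 FPKM, the zinc finger factor Egr1 at 2.98 ± 1.93, Fosb at 1.44 ± 0.713 and Npas4 at 1.21 ± 0.595 FPKM. Fosb was above Npas4 in 7 of 12 libraries, so their order was not set beyond the spread. In mean FPKM, Dusp1 stood above 95.1% of all genes and Npas4 above 28.6%.

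The genes differed in how much they varied between libraries. The ratio of the highest to the lowest CPM over the 12 libraries was 20.6 for Fos and 11.5 for Npas4. It was 6.94 for Egr1, 5.14 for Dusp1, 5.12 for Arc and 4.43 for Fosb. Junb, Ier2 and Jun varied less, with ratios of 2.91, 2.70 and 2.21. Nr4a1 gave no ratio because it had 0 fragments in synuclein 12 weeks replicate 2, where a count of 0 allows up to 3 fragments or 0.634 CPM, an allowance for counting error alone. No single library was high or low for the genes together: 5 genes had their highest value in a 7-week library and 5 in a 12-week library. Synuclein 7 weeks replicate 3 held the highest Fos and the lowest Jun, Arc and Ier2, and synuclein 12 weeks replicate 2 held the highest Ier2 and Npas4 and the lowest Fos and Nr4a1.

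**Figure D1:**
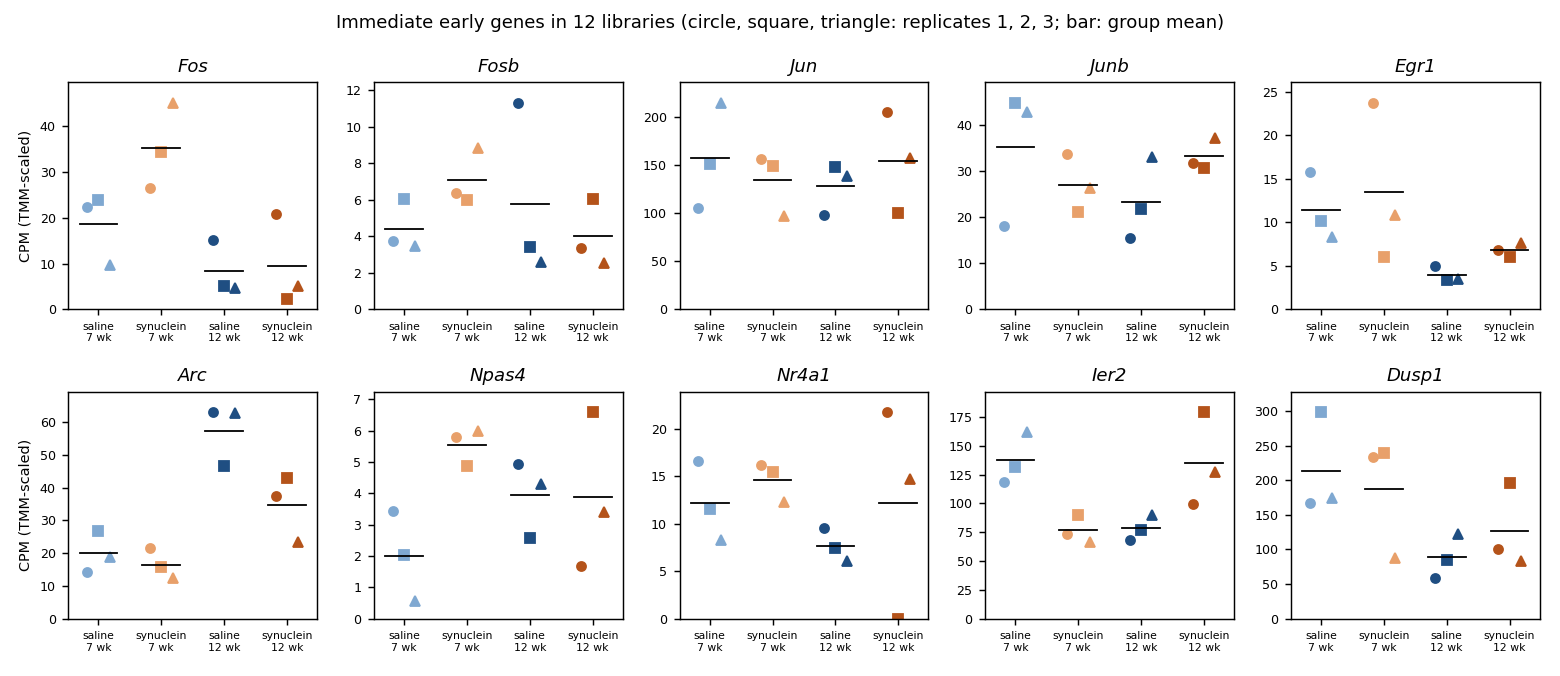
Levels of the 10 immediate early genes in each library, in TMM-scaled CPM on linear axes that start at 0, by group; circles, squares and triangles are replicates 1, 2 and 3 and the bar is the group mean. Arc stands higher at 12 weeks in 5 of 6 libraries, Fos and Egr1 stand lower, and Nr4a1 is at 0 in 1 library.

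Arc was the gene of this set whose group means were higher at 12 than at 7 weeks in both treatments. After saline, Arc was at 14.3, 26.8 and 18.9 CPM in replicates 1 to 3 at 7 weeks and at 62.9, 46.4 and 62.6 CPM at 12 weeks. After synuclein it was at 21.4, 15.7 and 12.3 CPM at 7 weeks and at 37.5, 43.1 and 23.2 CPM at 12 weeks. Within each treatment the times did not overlap, and 5 of the 6 libraries at 12 weeks lay above every library at 7 weeks; the exception was synuclein 12 weeks replicate 3. Arc lies on chromosome 15, at 74669081 to 74672570 in coordinates read as mm10.

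Averaged over both treatments, Arc was 2.45-fold higher at 12 weeks, a log2 fold of 1.29 ± 0.27 (SE) with an adjusted p of 0.0341 in edgeR's quasi-likelihood test with Benjamini-Hochberg adjustment. It was the 1 gene of the 10 past the threshold of 0.05, where 145 of 17380 genes, or 0.834%, passed (94 higher and 51 lower). The call was close to the threshold and ended in 9 of the 12 fits that left out 1 library. Over these 12 fits the log2 fold of Arc ran from 1.21 to 1.44, and 24 to 214 of all genes were called. Adjusted p was 0.0522, 0.0576 and 0.0756 without saline 7 weeks replicates 1, 2 and 3 and 0.0630, 0.0789 and 0.0593 without synuclein 7 weeks replicates 1, 2 and 3. It was 0.0789 and 0.0933 without saline 12 weeks replicates 1 and 3 and 0.0630 without synuclein 12 weeks replicate 1, while the other 3 omissions kept it between 0.0220 and 0.0321. Without synuclein 12 weeks replicates 1 and 2 together it was 0.311, and on log2 FPKM it was 0.0706 with a pseudocount of 1 and 0.0890 with 0.1. The log2 fold stayed between 1.002 and 1.44 over the 22 alternatives, of which 10 passed the threshold. Adjusted p over them ran from 0.000195, in DESeq2, to 0.311.

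**Figure D2:**
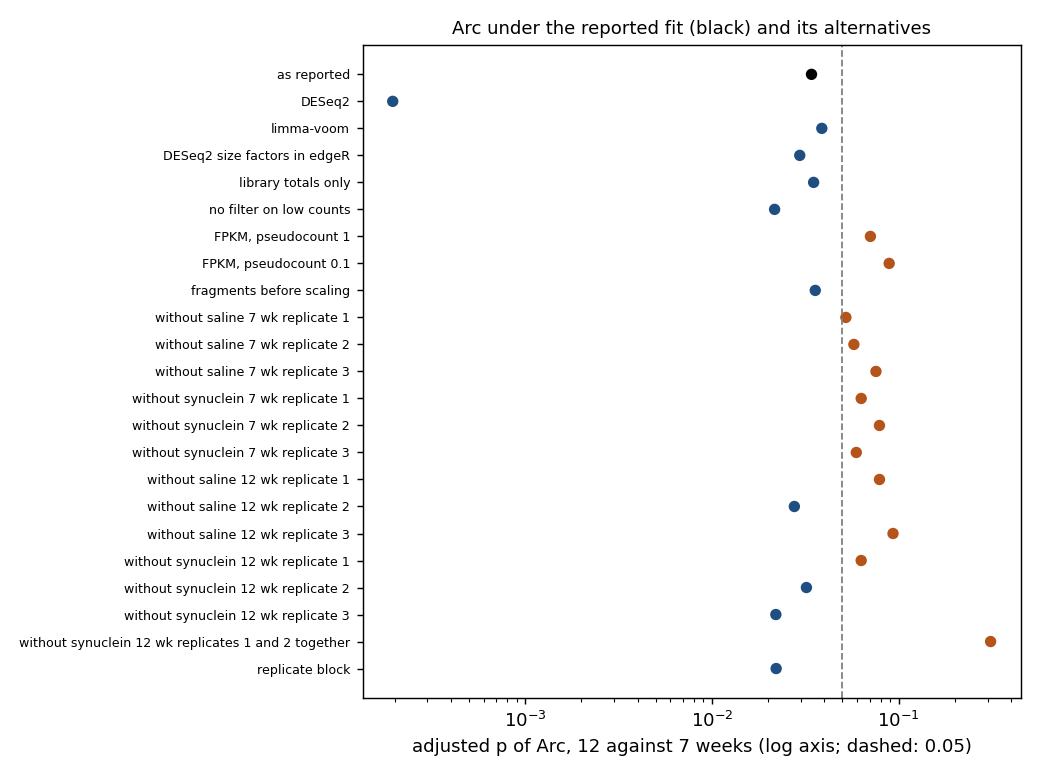
Adjusted p of Arc for 12 against 7 weeks over both treatments, on a log axis, in the reported test (black) and 22 alternatives; blue points pass 0.05 (dashed line) and orange points do not. Of the alternatives 10 pass, and 9 of the 12 that leave out 1 library do not.

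Within the treatments separately the same direction was measured with no call. Arc was at a log2 fold of 1.52 ± 0.38 at 12 against 7 weeks after saline (adjusted p = 0.22 in edgeR) and of 1.07 ± 0.38 after synuclein (adjusted p = 0.513). The difference between these, −0.45 ± 0.53, did not pass the test (adjusted p = 0.959).

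Fos had the opposite sign to Arc. Fos was at 22.3, 23.9 and 9.76 CPM in saline replicates 1 to 3 at 7 weeks and at 15.1, 5.13 and 4.59 CPM at 12 weeks. After synuclein it was at 26.6, 34.3 and 45.1 CPM at 7 weeks and at 20.9, 2.19 and 5.10 CPM at 12 weeks. In 5 of 6 libraries at 7 weeks Fos exceeded every library at 12 weeks, with saline replicate 3 the exception.

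Arc and Fos therefore exchanged their order per length. The Arc to Fos ratio of FPKM ran from 0.179 to 1.30 at 7 weeks (median 0.477, n = 6) and from 1.18 to 12.3 at 12 weeks (median 4.49, n = 6). Arc exceeded Fos in 1 of 6 libraries at 7 weeks and in 6 of 6 at 12 weeks.

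The group means of Egr1 and Dusp1 were also lower at 12 weeks in both treatments, and neither gene passed the test. Egr1 was at 15.7, 10.1 and 8.32 CPM after saline and at 23.7, 6.01 and 10.9 CPM after synuclein at 7 weeks. At 12 weeks it was at 4.93, 3.42 and 3.45 CPM after saline and at 6.77, 6.03 and 7.65 CPM after synuclein. Saline libraries at the 2 times did not overlap for Egr1, and synuclein libraries did.

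Dusp1 was at 168, 298 and 174 CPM after saline and at 233, 239.5 and 87.4 CPM after synuclein at 7 weeks. At 12 weeks Dusp1 was at 58.0, 84.9 and 122 CPM after saline and at 101, 196 and 83.9 CPM after synuclein. Its saline libraries did not overlap between the times, and 3 of 6 libraries at 7 weeks lay above all 6 at 12 weeks.

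Over both treatments the log2 fold at 12 against 7 weeks was −1.54 ± 0.48 for Fos, −1.26 ± 0.44 for Egr1 and −0.91 ± 0.28 for Dusp1. Their adjusted p-values in edgeR were 0.186, 0.274 and 0.164. DESeq2 called Fos (adjusted p = 0.0383), as did the edgeR fit without synuclein 12 weeks replicate 1 (0.0482, log2 fold −2.20). The fit without synuclein 12 weeks replicate 2 called Dusp1 (0.0480, log2 fold −1.13). Over both treatments 0 of the 10 genes had times that did not overlap, beside 0.944% of all genes. With Arc, these made 4 of 10 genes at an unadjusted p under 0.05, beside 9.82% of all genes tested.

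The remaining genes showed no common direction with time. The log2 fold over both treatments was −0.47 ± 0.61 for Nr4a1, −0.22 ± 0.53 for Fosb, 0.22 ± 0.58 for Npas4, −0.15 ± 0.29 for Junb, −0.04 ± 0.22 for Jun and 0.01 ± 0.18 for Ier2. Jun ranged from 97.4 to 215 CPM and Junb from 15.4 to 44.7 CPM. The lowest Jun values were 97.4 CPM at 7 weeks and 98.0 CPM at 12 weeks. On the other strand in GENCODE M21, the antisense gene Junos overlaps Jun by 689 bases, Prdx2 overlaps Junb by 351 bases, and Ergic1 and Gm8225 overlap Dusp1 by 640 and 956 bases. In the tables used here no other locus overlaps these 3 genes as counted. The counted Junb starts at 84976909, after Prdx2 ends at 84974834. The counted Dusp1 ends at 26508472, before Gm8225 starts at 26542760 and Ergic1 at 26561489. Junos overlaps the counted Jun, and with strand not stated, reads in that stretch cannot be told apart. Fosb ran from 2.55 to 11.3 CPM, the highest in saline 12 weeks replicate 1. The median log2 fold over the 10 genes was −0.18, and −0.22 without Arc, beside −0.03 over all genes tested.

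Nr4a1 was uneven at 12 weeks. Its group means, like those of Fos, Egr1 and Dusp1, were lower at 12 than at 7 weeks in both treatments. The log2 fold of Nr4a1 was −0.66 ± 0.87 after saline and −0.27 ± 0.85 after synuclein. Nr4a1 was at 16.6, 11.5 and 8.32 CPM after saline and at 16.2, 15.5 and 12.3 CPM after synuclein at 7 weeks. At 12 weeks it was at 9.57, 7.41 and 6.03 CPM after saline and at 21.7, 0 and 14.7 CPM after synuclein. The highest and the lowest library of all 12 thus belonged to the same group, the lowest being the library with the fewest genes detected. Without that library the log2 fold of Nr4a1 over both treatments was −0.16 and that of Fos −1.30. The fold of Nr4a1 was −0.80 without synuclein 12 weeks replicate 1, the highest library, and −1.36 in limma-voom, and neither passed the test.

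**Figure D3:**
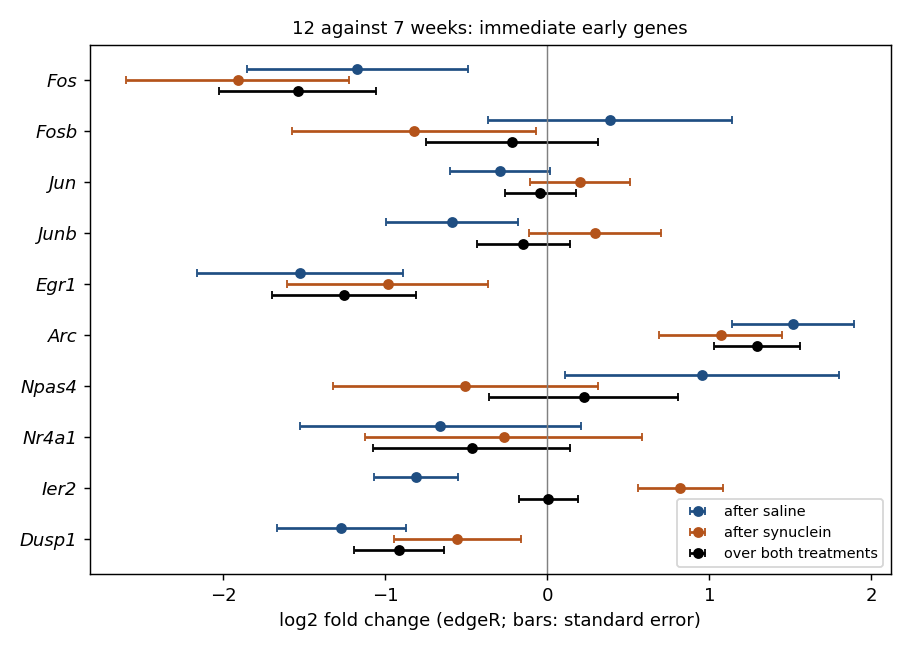
Log2 fold at 12 against 7 weeks for each gene after saline (blue), after synuclein (orange) and over both treatments (black), from edgeR; points are estimates and bars are standard errors. Arc lies right of 0 in the 3 comparisons, Fos, Egr1, Dusp1 and Nr4a1 lie left, and Ier2 lies on opposite sides in the 2 treatments.

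Within 1 treatment, time gave no call in edgeR. After saline 0 of 10 genes passed, where 0 of 17380 (0%) did, and 4 of 10 had an unadjusted p under 0.05 beside 7.42% of all genes. Limma-voom also called 0 of the 10 and 0 of all genes. DESeq2 called 165 of all genes and 0 of the 10, of which 7, Arc and Egr1 among them, were given no adjusted p there. Saline groups did not overlap for Arc (higher) or for Egr1, Ier2 and Dusp1 (lower), 4 of 10 genes where 16.2% of all genes did not overlap. The log2 folds were −1.53 ± 0.64 for Egr1, −0.81 ± 0.26 for Ier2 and −1.27 ± 0.40 for Dusp1 (adjusted p = 0.592, 0.394 and 0.372). After synuclein edgeR called 0 of 10 genes and 0% of all genes, and 3 of 10 had an unadjusted p under 0.05 beside 7.58% of all. DESeq2 called 82 of all genes and 0 of the 10, of which 4 were given no adjusted p, and limma-voom called 0. Groups did not overlap for Arc and Ier2 (higher) and Fos (lower), 3 of 10 where 12.3% of all genes did not. Fos was at a log2 fold of −1.91 ± 0.69 (adjusted p = 0.521) and Ier2 at 0.82 ± 0.26 (adjusted p = 0.452). The fold of Fos was −3.21 without synuclein 12 weeks replicate 1 and −1.42 without synuclein 12 weeks replicate 2, with adjusted p of 0.333 and 0.665.

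Synuclein against saline gave no called immediate early gene at either time. At 7 weeks edgeR called 0 of 10 genes and 0% of all, with 1 of 10 at an unadjusted p under 0.05 beside 1.64% of all, and DESeq2 and limma-voom called 0 of 10. The 3 genes whose groups did not overlap were Fos and Npas4, higher after synuclein, and Ier2, lower, where 8.45% of all genes did not overlap.

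Npas4, a factor induced by calcium in neurons, was at 3.43, 2.02 and 0.574 CPM after saline and at 5.78, 4.87 and 6.00 CPM after synuclein at 7 weeks. At 12 weeks it was at 4.93, 2.56 and 4.31 CPM after saline and at 1.69, 6.58 and 3.40 CPM after synuclein, so the groups overlapped there. The log2 fold at 7 weeks was 1.45 ± 0.85 for Npas4 and 0.92 ± 0.66 for Fos, both with an adjusted p of 1 in edgeR. That of Npas4 ran from 0.78, on FPKM with a pseudocount of 1, to 2.07, without saline 7 weeks replicate 1.

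At 12 weeks edgeR called 0 of 10 genes and 0% of all, with 1 of 10 at an unadjusted p under 0.05 beside 5.57% of all. DESeq2 and limma-voom called 0 of 10, and DESeq2 called 12 of all genes. Groups did not overlap for Egr1 and Ier2, higher after synuclein, and for Arc, lower, 3 of 10 genes where 10.7% of all genes did not overlap. Egr1 was at a log2 fold of 0.79 ± 0.64 (adjusted p = 0.903). The log2 fold of Arc for synuclein against saline was −0.28 ± 0.38 at 7 weeks, −0.73 ± 0.37 at 12 weeks (adjusted p = 0.894) and −0.50 ± 0.26 over both times (adjusted p = 1). Over both times edgeR called 0 of 10 genes and 0% of all, DESeq2 called 0 of 10 and 3 of all genes, limma-voom called 0 of 10, and 0 of 10 had an unadjusted p under 0.05 beside 2.48% of all. There, 0 of 10 genes had groups that did not overlap, beside 0.0748% of all.

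**Figure D4:**
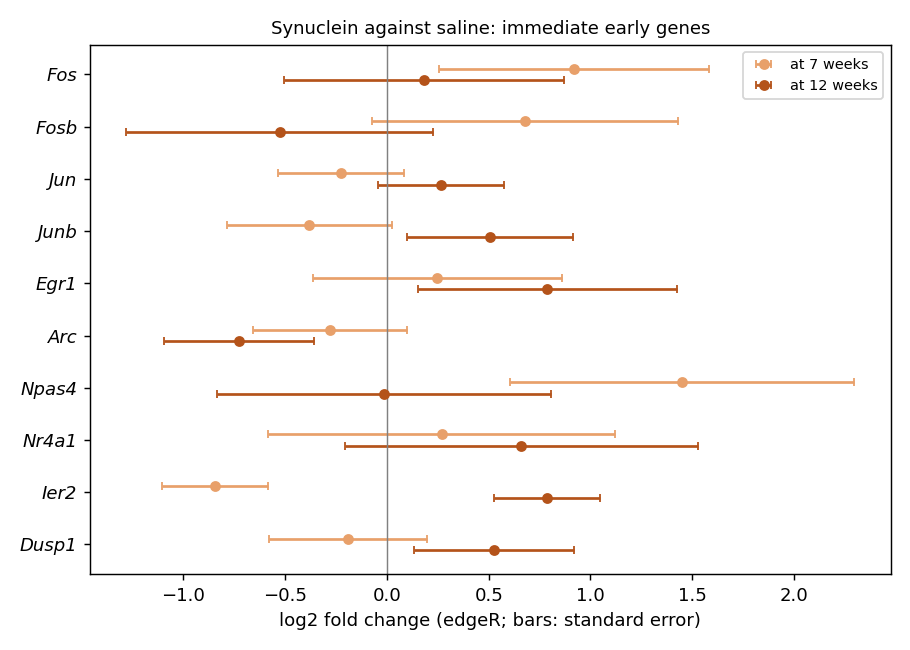
Log2 fold of synuclein against saline for each gene at 7 weeks (light) and 12 weeks (dark), from edgeR; points are estimates and bars are standard errors. Ier2 lies left of 0 at 7 weeks and right of 0 at 12 weeks, and Arc lies left of 0 at both times.

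The order of the treatments for Ier2 turned between the times. Ier2 was at 118, 132 and 162 CPM after saline and at 73.2, 90.15 and 66.3 CPM after synuclein at 7 weeks. At 12 weeks it was at 68.4, 76.7 and 90.2 CPM after saline and at 99.3, 179 and 128 CPM after synuclein. Synuclein libraries were below every saline library at 7 weeks and above every saline library at 12 weeks.

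The log2 fold of Ier2 for synuclein against saline was −0.84 ± 0.26 at 7 weeks and 0.79 ± 0.26 at 12 weeks (adjusted p = 1 and 0.887 in edgeR). The difference between the 2 effects was 1.63 ± 0.37, with an unadjusted p of 0.000322 and an adjusted p of 0.952, so it failed the correction over all genes. In that comparison edgeR called 0 of 10 genes and 0% of all, 1 of 10 had an unadjusted p under 0.05 beside 4.49% of all, and DESeq2 and limma-voom called 0 of 10. Over the alternatives the difference for Ier2 stayed between 1.42, without synuclein 12 weeks replicate 2, and 1.88. Without that library, which had the highest Ier2 and the fewest genes detected, the log2 fold at 12 weeks was 0.56.

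Heat-shock genes, chaperones induced by misfolded protein and by cell handling, had log2 folds between groups on the same sides as Ier2. Of 12 listed and tested, 0 were positive for synuclein against saline at 7 weeks (median log2 fold −0.37) and 12 at 12 weeks (median 0.72). With time, 0 of 12 were positive after saline and 12 of 12 after synuclein (medians −0.59 and 0.51), beside medians of 0.01 and −0.06 over all genes. For the difference of the synuclein effect, Hspa8 was at a log2 value of 0.79 ± 0.39, Hsp90ab1 at 1.07 ± 0.44 and Hsp90aa1 at 1.13 ± 0.46, with a median over the list of 1.15. The value of Hspa8 ran from 0.15 to 1.04 over the alternatives. At 12 weeks after synuclein, Hspa8 was at 3910, 2462 and 1701 CPM in replicates 1 to 3. Hsp90ab1 was at 3047, 1887 and 1415 CPM there, and Hsp90aa1 at 1207, 563 and 567 CPM. Within that group these named genes were thus highest in replicate 1, which had the lowest Ier2 of the group, 99.3 CPM. Over all 12 libraries Hsp90ab1 was highest in saline 7 weeks replicate 2, at 3196 CPM. Hsp90aa1 was at 741, 841 and 428 CPM in replicates 1 to 3 after saline at 7 weeks. EdgeR, DESeq2 and limma-voom called 0 of 12 in each comparison. In edgeR 8 of 12 had an unadjusted p under 0.05 for the difference, beside 4.49% of all genes tested. The part of this in the values of Ier2 was not tested.

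Genes of the same pathway were taken from lists chosen with earlier results of these data known, and are given for 12 against 7 weeks over both treatments. Of 23 other inducible transcription factors, 20 were tested, 4 were positive and 16 negative (median log2 fold −0.32), and 0 were called by edgeR. The most abundant were Krüppel-like factors: Klf6 at −0.43 ± 0.20, Klf2 at −0.35 ± 0.24 and Klf4 at −0.37 ± 0.24. At an unadjusted p under 0.05 in edgeR there were 1 higher and 3 lower, and DESeq2 called 2 and limma-voom 0. For this comparison 9.82% of all genes tested were under 0.05 in either direction, the share to set beside each list that follows.

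Among 18 feedback regulators, 15 were tested, 2 were positive and 13 negative (median −0.38). EdgeR called 0, DESeq2 2 and limma-voom 1, and 5 were lower at an unadjusted p under 0.05. Nfkbia, the inhibitor of NF-κB, was at −0.84 ± 0.20 (adjusted p = 0.0577 in edgeR), the MAP kinase phosphatase Dusp6 at −0.72 ± 0.27 and the mRNA decay factor Zfp36l1 at −0.11 ± 0.19.

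Of 11 activity-regulated secreted and synaptic genes, 10 were tested, 2 were positive and 8 negative (median −0.53), and 1 fell in edgeR. DESeq2 called 2 and limma-voom 1, and 4 were lower at an unadjusted p under 0.05. The gene that fell was Scg2, a granin of neuronal secretory granules. Scg2 was at 138 to 264 CPM after saline and 87.1 to 494 CPM after synuclein at 7 weeks, and at 39.3 to 106 CPM and 35.5 to 129.99 CPM at 12 weeks. Its log2 fold was −1.66 ± 0.37 with an adjusted p of 0.0452 in edgeR. The call ended in 10 of 12 fits that left out 1 library, all but those without synuclein 7 weeks replicate 3 and synuclein 12 weeks replicate 2, with adjusted p of 0.0609 to 0.134, and adjusted p over the alternatives ran from 0.0152 to 0.182. The kinase Plk2 was at −0.43 ± 0.25 and the vesicle protein Syt4 at −0.66 ± 0.30.

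The kinases and constitutive factors that act on immediate early promoters lay close to 0. All 21 listed were tested, 7 were positive and 14 negative (median −0.08), and edgeR, DESeq2 and limma-voom called 0, with 0 at an unadjusted p under 0.05 in edgeR. Mapk3 was at 0.03 ± 0.15 and Camk4 at −0.11 ± 0.19. Proteins that Arc binds or acts on at synapses gave no call in edgeR. Of 7 tested, 2 were positive and 5 negative (median −0.19), edgeR and limma-voom called 0 and DESeq2 1, and 1 was lower at an unadjusted p under 0.05. The endocytic GTPase Dnm2 was at 0.15 ± 0.21, the endophilin Sh3gl1 at −0.03 ± 0.23 and the kinase subunit Camk2b at −0.62 ± 0.30.

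Cell type markers also differed between the times. Summed neuron markers ran from 871 to 2445 CPM over the 7-week libraries and from 467 to 793 CPM over the 12-week libraries. Of 6, 0 were positive at 12 weeks (median log2 fold −1.06) and 2 fell in edgeR: Snap25 at −1.40 ± 0.23 and Stmn2 at −1.04 ± 0.22. Summed dopaminergic markers ran from 605 to 2286 CPM and from 490 to 1046 CPM, with 0 of 8 positive (median −1.33), and Th (−1.29 ± 0.27) and Slc18a2 (−1.45 ± 0.33) fell.

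Oligodendrocyte markers went the other way, as Arc did. Their sum ran from 15536 to 24399 CPM at 7 weeks and from 24588 to 41911 CPM at 12 weeks, with 6 of 6 positive (median 0.82). Mbp (1.09 ± 0.17), Mobp (0.78 ± 0.17) and Cnp (0.87 ± 0.20) rose in edgeR. These adjusted p-values lay between 0.0160 and 0.0469, and those of Snap25, Stmn2, Th and Slc18a2 in the same range. Of the 12 fits that left out 1 library, Snap25 and Mbp were called in 12, Stmn2 in 5, Mobp in 4, Slc18a2 and Cnp in 3 and Th in 2.

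Saline 12 weeks replicate 1 had both the highest Arc and the highest oligodendrocyte sum, 62.9 and 41911 CPM. Synuclein 12 weeks replicate 3, the 12-week library with the lowest Arc, had a sum of 25659 CPM, while saline 12 weeks replicate 2, with a lower sum of 24588 CPM, had 46.4 CPM of Arc. Summed markers of excitatory neurons, in which Arc is best known, ran from 26.0 to 52.9 CPM at 7 weeks and from 33.0 to 44.5 CPM at 12 weeks, with 2 of 5 positive. Of these, Neurod6 and Tbr1 were at 0 in at least 1 library. Endothelial sums ran from 9116 to 17437 CPM at 7 weeks and from 7145 to 12238 CPM at 12 weeks, with 0 of 6 positive (median −0.31). Microglial sums ran from 47.9 to 331 CPM and from 29.6 to 103 CPM, with 0 of 6 positive (median −0.96). Summed pericyte and smooth muscle markers were at 766 CPM in synuclein 7 weeks replicate 3 and at 95.3 to 246.5 CPM in the other libraries, with 2 of 5 positive (median −0.35). That library thus held the highest microglial and pericyte sums and also the highest Fos. Ependymal sums ran from 3.72 to 33.7 CPM at 7 weeks and from 7.95 to 403 CPM at 12 weeks, with 4 of 4 positive (median 2.98) and 0 called in edgeR. The part of these cell types in the values of Arc, Fos, Egr1, Dusp1 and Scg2 was not tested.

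**Figure D5:**
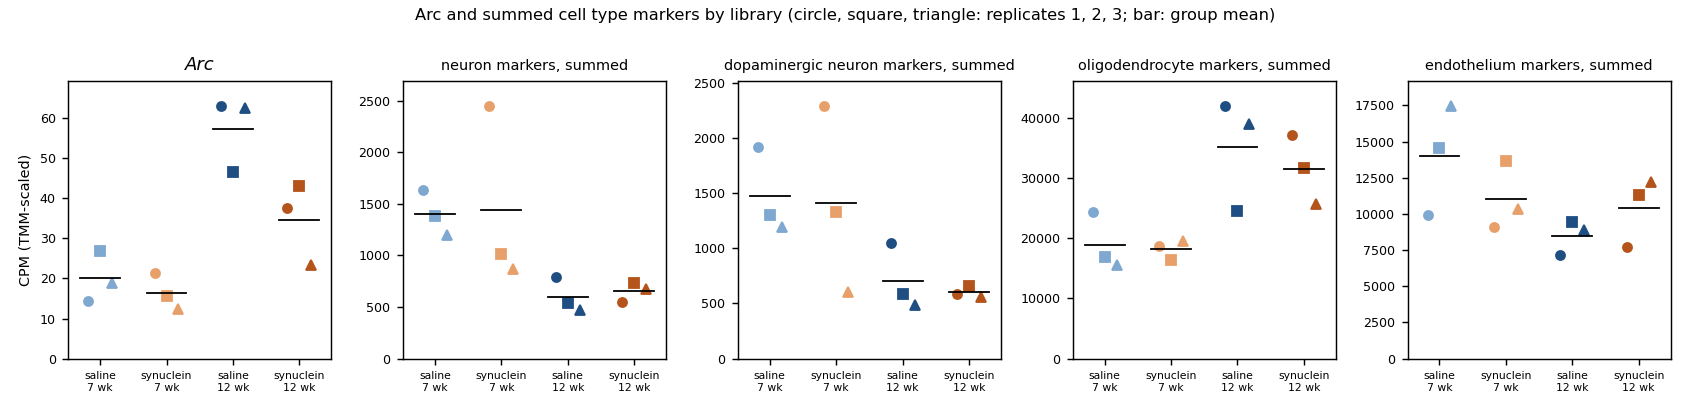
Arc and the summed levels of neuron, dopaminergic neuron, oligodendrocyte and endothelium markers in each library, in TMM-scaled CPM on linear axes that start at 0; circles, squares and triangles are replicates 1, 2 and 3 and the bar is the group mean. The group means of both neuronal sums are lower at 12 weeks, with overlap between libraries for the dopaminergic sum, and the oligodendrocyte sum is higher, from 24588 to 41911 CPM.

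Fam171b, Slc35e4, Ctsk and Slc38a7 were among the 5 genes whose levels followed Arc most closely over the 12 libraries, of 10102 genes at a mean of 5 CPM or more. Pearson's r of log2 CPM with Arc was 0.92 for Fam171b, 0.89 for Slc35e4, 0.88 for Ctsk and 0.88 for Slc38a7. The 12 points share their libraries, cell makeup and depth. Fam171b, a membrane protein, ran from 50.7 to 97.2 CPM at 7 weeks and from 66.6 to 129.9 CPM at 12 weeks. Ctsk, a lysosomal protease, ran from 3.43 to 13.8 CPM and from 9.92 to 37.0 CPM. As with Arc, synuclein 12 weeks replicate 3 had the lowest value of its time for Fam171b, Slc35e4, Ctsk and Slc38a7. This follows in part from choosing them by their correlation with Arc over these same libraries.

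Other genes followed Fos. They were Scn4b (r = 0.92), Asap3 (0.91), Cpne4 (0.90), Slc7a8 (0.89) and Nell2 (0.88), over the same 12 libraries. None of these is an immediate early gene or stands in the lists above.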

How the data were processed

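RNA was measured in 12 libraries amplified by SMARTer chemistry, per the labels. Per the submitters' processing notes, TopHat2 2.0.13, Bowtie2 2.2.3 and Cufflinks 2.2.1 were used and no build is named in these sources. The authors deposited estimated counts and FPKM for 24346 genes, with OK status for all. The deposited estimated counts are scaled: 98.9% to 99.2% of values in each library were whole multiples, within 0.02 fragments, of 1 step between 0.685 and 1.30. The FPKM values are used as deposited. Another 84 columns of per-library values, counted over all libraries and both tables, were not used. Of the gene names, 95.7% are in GENCODE M21 (mm10), where 61.2% of matches agree to 1000 bases at both ends. Coordinates are therefore read as mm10, counted from 1.

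Counts were rounded and tested in edgeR 4.0.16 (R 4.3.3) with filterByExpr, TMM scaling and a quasi-likelihood model of 4 group means over 12 libraries, which left 8 residual degrees of freedom. The common coefficient of biological variation was 46.6%. P-values were adjusted by Benjamini-Hochberg over 17380 genes in each of 7 comparisons, with a threshold of 0.05. The script was tested on simulated data. CPM are TMM-scaled. FPKM alternatives used limma 3.58.1 on log2 (FPKM + pseudocount), and DESeq2 1.42.0 was another. All 10 immediate early genes were named. From other lists, called genes or else the 3 of highest mean CPM were named, and the called cell type markers were added after their values were seen. Some genes that this rule names are not reported here. The 5 genes most like Arc or Fos had the highest Pearson r of log2 CPM (prior count 2). The genes, lists and tests were chosen with earlier results of these data known. The median standard error for time over both treatments was 0.37.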

Additional observations from a re-analysis of the deposited data

How the results depend on the processing

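Over 52 reported log2 folds and 1154 refits, 1028 kept direction and side of the threshold, 90 kept direction but lost a call, 9 gained one and 27 changed sign. A call could be lost only in a fold that was called as reported, and most of the 52 were not. Of the 22 alternatives of each called fold, 10 kept the call for Arc, 19 for Snap25, 20 for Mbp and 12 for Stmn2. Mobp kept it in 11, and Scg2, Th, Slc18a2 and Cnp in 9 each. The sign changes were in folds near 0. For 12 against 7 weeks over both treatments, Ier2 was at −0.0067 in limma-voom, −0.0033 with library totals, −0.041 without synuclein 12 weeks replicates 1 and 2 together and −0.0064 with the replicate block. Sh3gl1 was at 0.012 and 0.013 on FPKM with pseudocounts of 1 and 0.1, and Zfp36l1 at 0.0016 without that pair. Leaving out each library in turn gave −0.11 to 0.12 for Ier2, −0.15 to 0.13 for Jun, −0.29 to 0.00064 for Junb, −0.061 to 0.55 for Npas4, −0.17 to 0.16 for Sh3gl1, −0.19 to 0.025 for Zfp36l1, −0.18 to 0.023 for Camk4 and −0.050 to 0.12 for Mapk3.

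Calls over both treatments for time were 145 genes in edgeR, 468 in DESeq2, 5 and 1 on FPKM with pseudocounts of 1 and 0.1, 0 without that pair of libraries, 24 to 214 without single libraries and 246 with the replicate block. Immediate early genes called there were 1 in edgeR, 2 in DESeq2 (Arc and Fos), 0 and 0 on FPKM, 0 without the pair and 0 to 2 without single libraries. For time after saline, where edgeR called 0 genes, DESeq2 called 165, the fit with no filter 7, FPKM 1 and 2, the fit of the compared groups alone 49, the fit without the pair 14, single omissions 0 to 9 and the replicate block 34. For time after synuclein DESeq2 called 82 and single omissions 0 to 2. For synuclein against saline, DESeq2 called 12 and FPKM 1 and 2 at 12 weeks, with 0 to 1 without single libraries at each time; over both times DESeq2 called 3, FPKM with a pseudocount of 0.1 called 1 and single omissions 0 to 1. For the difference of the synuclein effect FPKM called 1 with either pseudocount. The cause of these differences was not tested. DESeq2 gave no adjusted p for 7 of the 10 genes after saline, 4 after synuclein and 2 (Fosb and Npas4) over both treatments. A fit of the compared groups alone gives no value for comparisons that use all 4 groups.

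Same-numbered replicates correlated at −0.0596 to 0.11 in their deviations from group means, and differently numbered ones at −0.155 to 0.11. These ranges overlapped and do not settle whether numbers pair samples, so numbers were not taken to pair them in the reported test. Yet 3 of 12 libraries correlated best with their own number in every other group. For time over both treatments the replicate block called 246 genes where the reported test called 145. Whether the numbers stand for shared handling was not tested. Scaling by library totals moved the median of all genes to −0.13 for time after synuclein and −0.18 for the difference of the synuclein effect. A prior count of 0.5 named the same 5 genes for Arc and for Fos.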
